A study of Mus musculus with 4 samples.

Results

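The genes of the cytosolic ribosomal proteins, together with their paralogs, were described in T helper 17 (Th17) cells, the CD4 T cells that make IL-17A and IL-17F. Members were the protein-coding genes whose mouse GENCODE symbol starts with Rpl or Rps and a digit (S6 kinase genes left out), plus Rplp0, Rplp1, Rplp2 and Rpsa. The rule found 92 of the 21764 protein-coding genes, in tables of 50600 genes. Of these, 77 are core genes, 46 of the large and 31 of the small subunit. A further 7 are paralogs whose symbols end in l or l1, and 8 are neither, 6 of them with -ps symbols although annotated as protein-coding.

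Read pairs had been counted per gene in 4 libraries of primary Th17 cells of strain C57BL/6NJ, differentiated in culture from CD4 T cells. The labels number them as biological replicates 1 to 4 with 1 donor entry and sex not collected, so the spread between them may be partly technical. A time of 24 hours appears in the table headers only. All 4 libraries form 1 group, with no other cell type, genotype or treatment beside it.

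A mammalian ribosome has a small subunit, which decodes the mRNA, and a large subunit, which joins amino acids and releases the chain through an exit tunnel. Each subunit carries a set of core proteins, made from mRNAs that mostly start with a run of pyrimidines (a TOP tract), through which mTOR signalling sets their translation. T cells build many ribosomes when they leave rest and start to divide, and some core genes have paralogs with a narrower tissue range.

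Read pairs that map to several places were not counted, so sequence shared between members bears on every level below. Coding sequences from GENCODE M21 are therefore shown first for a paralog that differs at many bases along its length and for one that holds a longer identical stretch. Capitals mark the bases at which the lines of a pair differ, and all other bases are identical.
Rps27l: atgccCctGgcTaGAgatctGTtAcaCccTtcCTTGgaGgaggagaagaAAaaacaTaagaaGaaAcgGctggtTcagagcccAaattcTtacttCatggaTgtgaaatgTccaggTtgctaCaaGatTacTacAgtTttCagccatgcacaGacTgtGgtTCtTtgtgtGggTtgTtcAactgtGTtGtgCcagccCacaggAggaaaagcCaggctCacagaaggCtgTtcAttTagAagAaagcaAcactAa
Rps27: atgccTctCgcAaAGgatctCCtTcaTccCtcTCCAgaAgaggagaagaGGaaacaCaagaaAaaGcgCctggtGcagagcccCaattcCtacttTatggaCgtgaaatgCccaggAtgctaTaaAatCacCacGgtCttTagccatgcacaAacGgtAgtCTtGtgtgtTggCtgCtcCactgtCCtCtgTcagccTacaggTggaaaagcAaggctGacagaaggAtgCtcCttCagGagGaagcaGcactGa
Rpl39l: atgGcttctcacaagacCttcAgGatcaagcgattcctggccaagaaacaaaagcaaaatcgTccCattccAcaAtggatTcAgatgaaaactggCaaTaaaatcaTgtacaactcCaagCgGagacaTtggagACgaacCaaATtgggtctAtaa
Rpl39: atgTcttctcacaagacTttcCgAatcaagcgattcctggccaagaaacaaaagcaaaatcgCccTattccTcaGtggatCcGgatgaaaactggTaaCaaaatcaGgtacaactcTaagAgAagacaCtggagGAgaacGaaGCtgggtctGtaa

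Rps27l (chromosome 9, 66946086 to 66949516, mm10) and Rps27 (chromosome 3, 90212522 to 90213651) differed at 61 of 255 coding bases, with a longest identical run of 11 bases. Rpl39l (chromosome 16, 10170226 to 10174911) and Rpl39 (chromosome X, 37082520 to 37085402) differed at 23 of 156 bases, with a longest identical run of 38. A word of 50 bases therefore separates each of these paralogs from its own core gene. The copy Rps27rt (chromosome 9, 114982366 to 114982739), by contrast, had the same 255 coding bases as Rps27, with 0 differences.

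Total counts were 19332509 to 48558772 per library, and 98.7% to 98.9% fell in protein-coding genes. Markers of T cells summed to 2319 to 2411 TPM and those of Th17 cells to 458 to 647 TPM. TPM (transcripts per 1000000 transcripts) was computed here from the counts and the merged exon lengths in the tables. The 3 B cell markers summed to 0.0574 to 0.595 TPM, the 3 myeloid markers had no count, and the 2 erythroid markers stayed at or below 0.225 TPM.

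Core genes were among the most abundant mRNAs of these cells. They filled 10 of the 20 highest places among protein-coding genes by mean TPM, 25 of the 50 highest and 39 of the 100 highest. The 7 paralogs summed to 1763 ± 37.7 TPM, against 126027 ± 2747 TPM for the 77 core genes (SD, n = 4). As a share of all counts, the 92 members took 5.71%, 6.07%, 5.94% and 5.97% in replicates 1 to 4, a mean of 5.92% ± 0.152 (SD, n = 4). The median core gene stood at 1145 TPM, against 0.411 TPM for all protein-coding genes.

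All 77 core genes were above 1 TPM by edgeR's quasi-likelihood test with Benjamini-Hochberg adjustment over all 21764 genes, where 45.9% of all protein-coding genes were. Against 100 TPM, 76 of the 77 passed, where 9.06% of all protein-coding genes did. Rpl24 was the exception. These counts describe levels in 1 group, and they rest on a dispersion that is shared across genes. Bulk RNA cannot tell fewer cells expressing a gene from less RNA of it per cell.

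**Figure D1:**
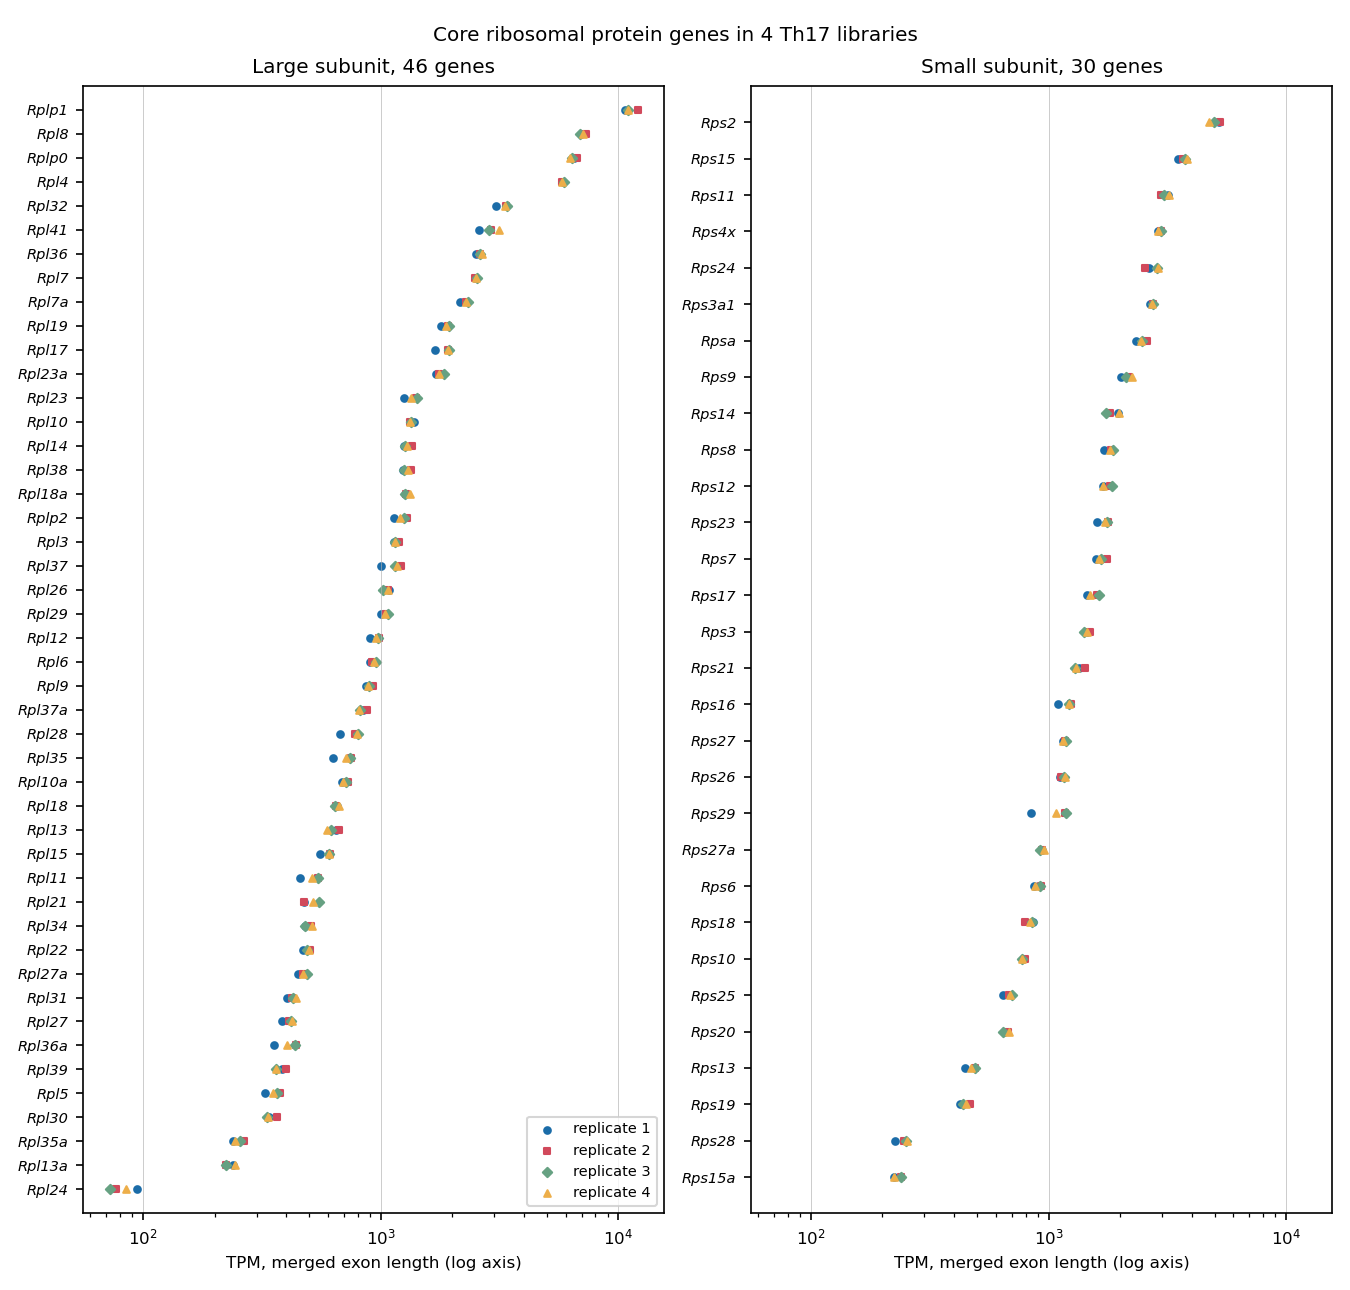
TPM of 76 of the 77 core genes on a log axis, 46 of the large subunit on the left and 30 of the small subunit on the right, ordered by mean, with 1 marker for each replicate. Genes ran from 82.2 TPM (Rpl24) to 11166 TPM (Rplp1) by their means, and the markers of a gene lay close together beside that range.

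The stalk proteins form the arm of the large subunit that calls in and activates the elongation factors. Rplp1 (chromosome 9, 61913284 to 61914542), an acidic stalk protein, was the highest of all protein-coding genes, at 10637, 12066, 10958 and 11001 TPM in replicates 1 to 4. Its base, Rplp0, stood at 6479.5, 6707, 6403 and 6269 TPM. Rplp2, the partner of Rplp1 in the stalk dimer, stood at 1142, 1287, 1251 and 1201 TPM. On the merged length the order of the 3 genes was the same in every library, and none of their ranges overlapped. With the length of the principal transcript (the best APPRIS rank in GENCODE M21, then the shortest) in place of all merged exons, the means were 11166 TPM for Rplp1, 7897 TPM for Rplp0 and 6006 TPM for Rplp2.

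The other highest core genes were Rpl8, Rpl4 and Rps2. Rpl8, a protein near the peptidyl transferase centre, stood at 6961, 7289, 6908 and 7075 TPM. Rpl4, whose extension lines the exit tunnel, stood at 5822, 5779.9, 5926 and 5761 TPM. Rps2, at the mRNA entry of the small subunit, stood at 5227, 5264, 4974 and 4736 TPM. Libraries overlapped between none of these 3 genes. Rpl8 shared 7.86% of the 50-base words of its principal transcript with another gene and Rpl4 16.5%, while Rps2 shared 79.0%, and 62 annotated pseudogenes held words of it.

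The lowest core genes were Rpl24, Rps15a, Rpl13a, Rps28 and Rpl35a. Rpl24, which forms a bridge to the small subunit, stood at 94.1, 77.2, 72.4 and 84.9 TPM. Rpl13a, known in human monocytes for a second role in silencing inflammatory mRNAs, stood at 238, 224, 223 and 243 TPM. These are also the only 2 core genes whose exons were overlapped over more than 25% of their length by another gene on the same strand. For Rpl24 the overlap was 47.0% of 1030 bases, all of it with Gm28037, and for Rpl13a 35.4% of 2114 bases, 29.4% with Gm45713. Read pairs that fall in exons of several genes were not counted, and how many such pairs there were was not tested.

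Rps15a, Rps28 and Rpl35a had no such overlap. Rps15a, of the small subunit's body, stood at 223, 239, 240.2 and 224 TPM on a merged exon length of 6270 bases. Its principal transcript is 640 bases long, and on that length its mean was 2269 TPM. Rps28, at the mRNA exit of the small subunit, averaged 244 ± 13.2 TPM (SD, n = 4), and 1319 TPM on the principal length. Rpl35a averaged 251 ± 11.6 TPM, and 1799.5 TPM on the principal length. On the principal length the lowest core genes were Rpl24 at 125 TPM, Rpl13a at 468 TPM, Rpl5 at 679 TPM, Rps20 at 729.8 TPM and Rpl39 at 883 TPM. Rps20 was named after its values were seen. Its principal transcript is 3706 bases long for a coding sequence of 360 bases. That of Rpl5 is 2045 bases long for 894, and that of Rpl39 612 for 156. Whether transcripts of these lengths are the ones present was not tested.

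Across the 77 core genes, merged exon length was a median of 2.31 times the principal transcript's length, with a range from 0.521 to 9.80. Spearman's rho between that ratio and mean TPM was -0.61 over 77 genes, and 0.084 when TPM was computed on the principal length. This is a description, since the merged length divides TPM. Mean TPM on the 2 lengths had a rho of 0.68 over the same genes. The SD over core genes of log2(mean TPM + 1) was 1.28 on the merged length and 1.05 on the principal length.

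**Figure D2:**
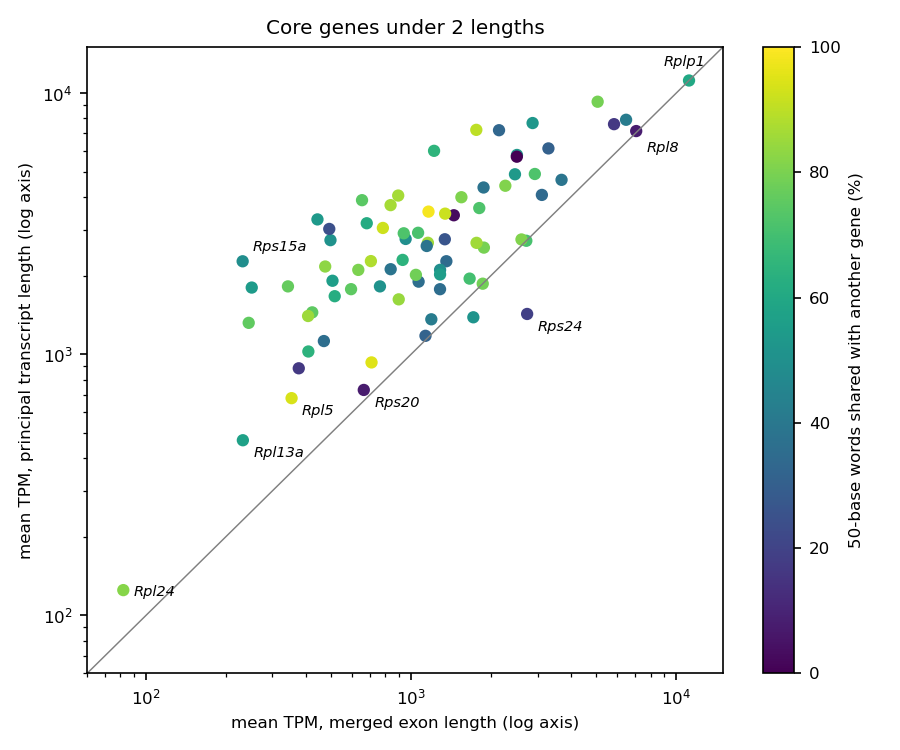
Mean TPM of the 77 core genes on merged exon length (x, log axis) and on principal transcript length (y, log axis), with the line of equal values, coloured by the percentage of 50-base words of the principal transcript found in another gene. Most genes lie above the line, Rps15a far above it at 232 and 2269 TPM, and Rpl24 is the lowest on both axes at 82.2 and 125 TPM. The y values keep the scaling from merged lengths, so the distance from the line follows from the lengths alone.

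Shared sequence was the rule among core genes. A median of 61.2% of the 50-base words of the principal transcript occurred in another annotated gene, and up to 98.6% for Rps27. Rps12, with 90.1% of its words shared, averaged 1761 ± 84.3 TPM (SD, n = 4) and 7226 TPM on the principal length. On that length it stood above the median core gene, at 2669 TPM, as did Rps27 at 3515 TPM. Rpl35, with 95.1% of its words shared, and Rpl5, with 93.8%, stood below that median, at 930 and 679 TPM. For 75 of the 77 genes at least 1 annotated pseudogene held such words, up to 92 pseudogenes for Rpl7a. On the principal length, the 27 core genes with at least 75% shared words had a median of 2272 TPM and a range of 125 to 9260.5 TPM. The 8 with under 25% had a median of 3210.3 TPM and a range of 729.8 to 7598 TPM. The ranges overlapped over most of their extent, and Spearman's rho between shared percentage and level on the principal length was -0.066 over 77 genes. On the merged length rho was -0.23, with medians of 894 TPM for the 27 genes and 1976 TPM for the 8. With the shared percentage taken over all transcripts of a gene, rho on the merged length was 0.25, so the sign depended on the measure.

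Counts assigned to pseudogenes named after members were small beside those of the members. The 284 such pseudogenes together held 0.430%, 0.411%, 0.445% and 0.458% of the members' counts in replicates 1 to 4, and 86 of them had no count. The 3 highest with a -ps symbol were Rpl14-ps1, Rps24-ps3 and Rps23-ps1. Rpl14-ps1 had 1483, 879, 1891 and 2135 counts, 7.05% of the summed count of Rpl14. Rps24-ps3 had 2.31% of the count of Rps24, and Rps23-ps1 3.09% of that of Rps23.

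The core genes named next were chosen for known roles beside translation or for unusual proteins. They ranked from 10th (Rpl41) to 71st (Rpl5) of the 77 by mean TPM. Rpl13a, described above with a second role, ranked 75th. Rpl5 and Rpl11, which with 5S rRNA bind MDM2 and so free p53, averaged 354 ± 22.3 and 515 ± 41.1 TPM (SD, n = 4). Rps6, the subunit protein phosphorylated downstream of mTOR, stood at 871, 927, 919 and 874 TPM. Rpsa, also described as the laminin receptor, averaged 2464 ± 105 TPM. Rps27a, made as a fusion with ubiquitin, stood at 937, 941, 919.6 and 954 TPM. Rpl41, whose coding sequence has 78 bases, stood at 2580.0, 2911, 2846 and 3147 TPM. All 4 libraries of Rpl5 were below all 4 of Rpl11, and 93.8% of the words of Rpl5 were shared, against 62.2% of those of Rpl11. Whether the shared words bear on this order was not tested.

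The 7 genes of proteins at the tunnel exit (Rpl17, Rpl19, Rpl23a, Rpl26, Rpl31, Rpl35, Rpl39) had a median of 1062 TPM, from 377 TPM for Rpl39 to 1881 TPM for Rpl19. The 20 genes mutated in human Diamond-Blackfan anaemia, a failure of red cell production, had a median of 681 TPM, from 232 TPM for Rps15a to 2738 TPM for Rps24. All genes of both lists passed the test against 1 TPM, as every core gene did. Of the ribosomal proteins that the naming rule leaves out, Fau, a fusion that yields a small subunit protein, averaged 1561 ± 112 TPM (SD, n = 4). Rack1, the signalling scaffold on the small subunit, averaged 1492 ± 63.8 TPM.

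On the merged length, large subunit genes had the lower median, at 941 TPM for the 46 genes, against 1449 TPM for the 31 small subunit genes. The mean of log2(TPM + 1), large minus small, was -0.42, -0.40, -0.41 and -0.41 in replicates 1 to 4. Its mean was -0.41 ± 0.0081 (SD, n = 4), with the same sign in 4 of 4 libraries. This score over listed genes was not tested. The sign depended on the length used. The difference was 0.042 when levels were set per 50-base word of the principal transcript found in no other gene, over the genes with at least 50 such words.

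The paralogs fell into 3 bands. Rps27l, Rpl7l1, Rpl36al and Rpl22l1 were expressed at 115 to 782 TPM, Rpl39l at a few TPM, and Rpl3l and Rpl10l at or near 0. By edgeR's test against 1 TPM, 5 of 7 were above it and 2 below, where 51.5% of all protein-coding genes were below. With DESeq2's Wald test the same 5 were above, and neither of the 2 was called below. The mean of log2(TPM + 1) over the 7 paralogs minus that over the 77 core genes was -4.82, -5.0, -5.15 and -4.90 in replicates 1 to 4. Its mean was -4.97 ± 0.14 (SD, n = 4), and this score over listed genes was not tested. In all 7 pairs the paralog was lower than its core gene in 4 of 4 libraries, each with an exact sign-flip permutation p of 0.125 and 0.125 after Benjamini-Hochberg adjustment over the 7 pairs. With 4 libraries no pair could pass 0.05.

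**Figure D3:**
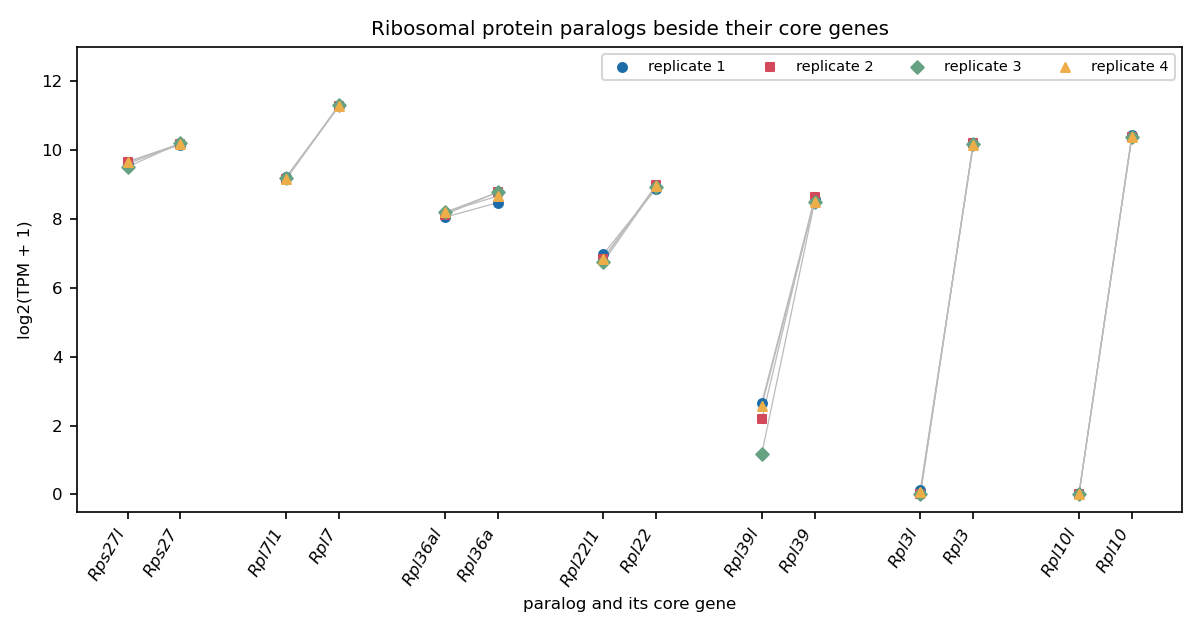
Level as log2(TPM + 1) of the 7 paralogs, each left of its core gene, with a marker for each replicate and a line joining the values of a library. Every line climbs to the core gene, slightly for Rps27l and Rpl36al and by about the whole axis for Rpl3l and Rpl10l.

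Rps27l, a p53 target, came nearest to its core gene with Rpl36al. Rps27l stood at 779.8, 808, 729 and 812 TPM, against 1147, 1169.9, 1183 and 1150.4 TPM for Rps27, and the libraries of the 2 genes did not overlap. Its mean was 67.3% of that of Rps27, with a difference of -0.57 ± 0.087 on the log2(TPM + 1) scale (SD, n = 4). On principal lengths the difference was -1.46. Of the words of Rps27l 22.4% were shared, and of those of Rps27 98.6%, so the ratio is uncertain.

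Rpl36al (chromosome 12, 69182731 to 69184083) is thought to be a retrocopy of Rpl36a, and their coding sequences were 87.9% identical, with no identical run over 24 bases. It stood at 264, 278, 291 and 293 TPM, against 355, 439, 437 and 405 TPM for Rpl36a (chromosome X, 134585654 to 134588062). The difference was -0.53 ± 0.11 on the log2(TPM + 1) scale and -0.95 on principal lengths. Replicate 1 was the lowest library of both genes. Shared words made up 63.3% of Rpl36al and 85.5% of Rpl36a.

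Rpl7l1 (chromosome 17, 46773907 to 46782656), a nucleolar protein of large subunit assembly, stood at 595, 574, 581 and 574 TPM, against 2486, 2487, 2539 and 2513 TPM for Rpl7. Its coding sequence was 52.8% identical to that of Rpl7, the lowest identity of the 7 pairs. The mean was 23.2% of that of Rpl7 (19.96% on principal lengths), a difference of -2.11 ± 0.032 on the log2(TPM + 1) scale (SD, n = 4).

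Rpl22, which mouse alpha-beta T cells need for their development in the thymus, has the paralog Rpl22l1, whose mRNA Rpl22 is known to repress. Rpl22l1 (chromosome 3, 28805436 to 28807424) stood at 125, 114, 107 and 113 TPM, against 470.3, 503, 491 and 501 TPM for Rpl22 (chromosome 4, 152325742 to 152334071). The difference was -2.09 ± 0.13 on the log2(TPM + 1) scale (SD, n = 4) and -2.87 on principal lengths. The library with the highest Rpl22l1, replicate 1, was the one with the lowest Rpl22, but it was the lowest for 60 of the 77 core genes. Replicate 2, with the highest Rpl22, had a higher Rpl22l1 than replicates 3 and 4. Repression in these cells was not tested. Coding sequences were 66.9% identical, and 65.6% of the words of Rpl22l1 and 24.5% of those of Rpl22 were shared with other genes.

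Rpl39l, described mainly in testis, stood at 5.33, 3.53, 1.27 and 4.96 TPM, against 384, 399, 362 and 362 TPM for Rpl39. Its counts were 54, 17, 11 and 60. The mean was 1.00% of that of Rpl39, with an exact Poisson 95% interval of 0.843% to 1.18% that covers counting error only. On principal lengths it was 0.646%, with an interval of 0.544% to 0.761%. Rpl39l was nonetheless above 1 TPM by edgeR (adjusted p = 1.49e-20). With DESeq2's Wald test it was above as well, with a weaker adjusted p of 2.92e-04. None of the 50-base words of its principal transcript occurred elsewhere. Replicate 3 was its lowest library.

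Rpl3l, known from heart and skeletal muscle, had 2, 0, 0 and 1 counts, against 154215 summed counts of Rpl3. Its mean of 0.0354 TPM was 0.00306% of the 1157 TPM of Rpl3, with an exact Poisson 95% interval of 0.000632% to 0.00895%. On principal lengths the share was 0.00159%, with an interval of 0.000327% to 0.00463%. Rpl10l, an autosomal retrogene that stands in for X-linked Rpl10 in mouse male meiosis, had no count in any library, against 1377, 1326, 1339 and 1332 TPM for Rpl10. Against 3 counts over the 4 libraries, its level was at least 19671-fold lower than that of Rpl10, and at least 50543-fold lower on principal lengths. Only 7.60% of its words were shared, while Rpl10 itself shared 92.1%. Both genes were below 1 TPM by edgeR (adjusted p = 9.10e-07 for Rpl3l and 1.28e-06 for Rpl10l). With DESeq2's Wald test neither was called, with an adjusted p of 0.0661 for Rpl3l and no p for Rpl10l.

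The 8 remaining members ranged from 0 to 214 TPM, with a median of 4.97 TPM. Rps19bp1, which encodes a nucleolar binding partner of Rps19 and is no subunit protein, stood at 219, 221, 205 and 209 TPM. Rps27rt, the copy with a coding sequence identical to that of Rps27, stood at 43.9, 43.9, 32.6 and 48.3 TPM. It shared 91.1% of its words, and an unbroken run of 341 bases was common to its transcript and that of Rps27. Its mean, from 685 summed counts, was 3.63% of that of Rps27, and 1.20% on principal lengths.

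Rpl9-ps6, whose coding sequence differs from that of Rpl9 at 1 of 579 bases, stood at 10.7, 9.00, 7.23 and 12.4 TPM. Rpl10-ps3, identical to Rpl10 over 645 coding bases, stood at 6.20, 6.75, 10.8 and 9.93 TPM. Rpl36a-ps1 had 13, 2, 3 and 4 counts and Rps12-ps3 had 10, 1, 10 and 10, and neither passed the test against 1 TPM. Rpl9-ps1 had 2 counts in all and Rpl36-ps4 none, and both were below 1 TPM by edgeR's test after adjustment, but neither was called with DESeq2. With 96.1% of the words of Rpl10-ps3 and 100% of those of Rps12-ps3 shared, these levels are uncertain.

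Most core genes varied by a few percent between libraries, mostly in a common direction. The SD over libraries was a median of 3.86% of a core gene's mean TPM, from 1.00% for Rpl7 to 14.9% for Rps29. Replicate 1 was the lowest library for 60 of the 77 core genes by log2(CPM + 1), with CPM as TMM-scaled counts per 1000000. That was 36 of 46 large subunit genes and 24 of 31 small subunit genes. Among the 370 other tested genes at or above the core genes' lower quartile of mean CPM, replicate 1 was lowest for 78 (21.1%). The median SD of log2(CPM + 1) over libraries was 0.066 for core genes, above the 0.041 of these 370 genes. The median core gene was -0.072 from its own mean in replicate 1 and 0.041, 0.032 and 0.0081 in replicates 2 to 4, on the log2(CPM + 1) scale, while the 370 other genes had a median of 0.0013 in replicate 1.

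**Figure D4:**
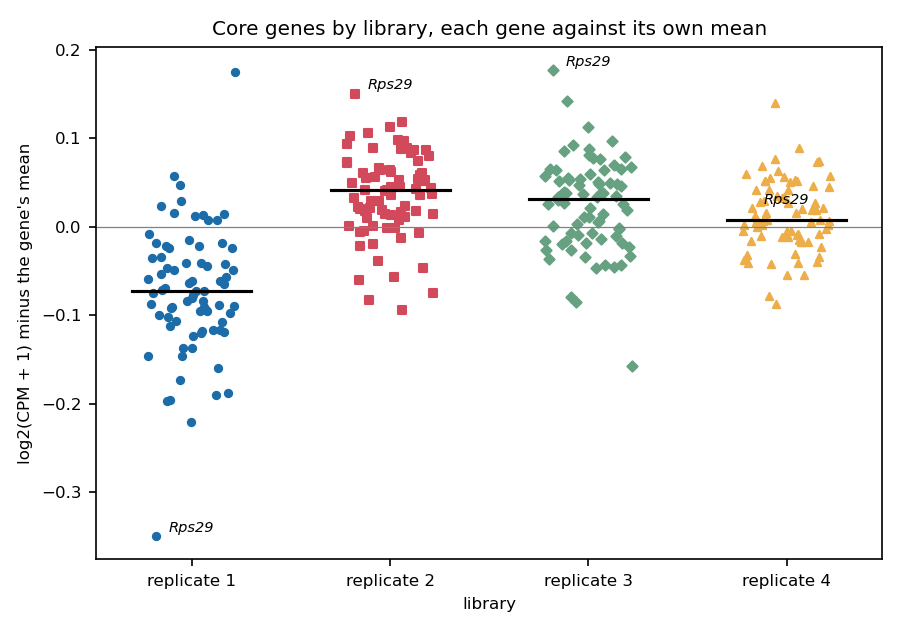
Each of the 77 core genes in each replicate as log2(CPM + 1) minus the gene's mean over the 4 libraries, with a black bar at the median. Replicate 1 lies lowest, with a median of -0.072, and Rps29 is its lowest point at -0.35.

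The paralogs did not share this order. Among the 5 paralogs tested, replicate 1 was lowest for 1 gene, replicate 3 for 3 and replicate 4 for 1. Replicate 1 was neither the shallowest nor the deepest library. Across the 77 core genes, Spearman's rho between the deviation of replicate 1 from the mean of the others and coding length was 0.29, against -0.20, -0.073 and -0.17 for replicates 2 to 4. With principal transcript length in place of coding length, rho was 0.080, -0.076, 0.038 and -0.0078 in replicates 1 to 4. With the percentage of shared words it was -0.024, 0.019, 0.24 and -0.31. All these points share the same 4 libraries, and the part of fragment length or RNA quality in the order was not tested.

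In the test for variation between libraries, 1 of 86 tested members was called, where 0.366% of all 12849 tested genes were (47 genes). It was Rps29, a small subunit protein whose human gene is mutated in Diamond-Blackfan anaemia. Rps29 (chromosome 12, 69157722 to 69159186) stood at 842, 1169.9, 1186 and 1070.1 TPM in replicates 1 to 4, and the test against the trended dispersion gave an adjusted p of 1.03e-04 with edgeR. Replicate 1 lay below the others. Without replicate 1 the adjusted p was 1.00 and without replicate 3 it was 0.0922, so the call rests on these libraries.

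The members with the next smallest p were Rpl36a, Rpl39l, Rpl35, Rpl37, Rpl11, Rps28 and Rpl28, none of which was called. Rpl35, at the tunnel exit, stood at 630.2, 749, 741 and 716 TPM. Rpl37 stood at 1001, 1212, 1151 and 1167 TPM. Rpl28 stood at 674, 780.4, 801 and 796 TPM. Of the 7 genes, all but Rpl39l were lowest in replicate 1. The median SD of log2(CPM + 1) was 0.067 over the 86 members and 0.041 over 513 other genes at or above the members' lower quartile of mean CPM. With the dispersion trend of DESeq2 in place of that of edgeR, 5 members were called, where 0.405% of all tested genes were. They were Rps29, Rpl36a, Rpl41, Rpl11 and Rpl28.

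The start of the mRNA was read from RefSeq promoter entries (GRCm38.p6), which matched 66 of the 92 members and 57 of the 77 core genes. The motif searched was C at the annotated start followed by at least 4 bases that are each C or T, on the transcribed strand. The match nearest the start is in capitals where it lies within 10 bases of the start, and other matches are not marked. Lines are given for Rps6, for genes of the pairs that had it within 4 bases, and for Rpl36al and Rpl41, which had none within 10. Each line runs from 20 bases before the annotated start to the 20th base from it.
Rps6: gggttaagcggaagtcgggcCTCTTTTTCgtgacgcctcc
Rps27l: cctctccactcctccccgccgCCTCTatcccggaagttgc
Rps27: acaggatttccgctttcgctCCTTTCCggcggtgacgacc
Rpl22l1: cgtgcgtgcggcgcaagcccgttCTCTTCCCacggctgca
Rpl39: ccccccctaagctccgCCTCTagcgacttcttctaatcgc
Rpl36al: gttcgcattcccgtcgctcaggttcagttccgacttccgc
Rpl41: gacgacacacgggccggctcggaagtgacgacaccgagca

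Rps6 (chr4:86857348-86857387, minus strand) and Rps27 (chr3:90213629-90213668, minus strand) had the tract exactly at the annotated start. Rps27l (chr9:66946066-66946105, plus strand) had it 1 base after the start and Rpl22l1 (chr3:28805488-28805527, plus strand) 3 bases after. Rpl39 (chrX:37085203-37085242, minus strand) had it 4 bases before. Rpl36al (chr12:69184048-69184087, minus strand) and Rpl41 (chr10:128549149-128549188, minus strand) had none within 10 bases of the start. Rpl39l, not printed, had it 6 bases before the start and Rpl36a 9 bases after. Rpl22 had it 7 bases after 1 of its annotated starts and not at the other, and a second annotated start of Rps27l had none. Of the paralogs, 0 of 7 had the tract exactly at the start, against 13 of 57 core genes (22.8%) and 448 of 16469 protein-coding genes of the tables (2.72%). Within 10 bases of the start, the numbers were 5 of 7 paralogs (71.4%), 34 of 57 core genes (59.6%) and 5797 of 16469 protein-coding genes (35.2%).

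**Figure D5:**
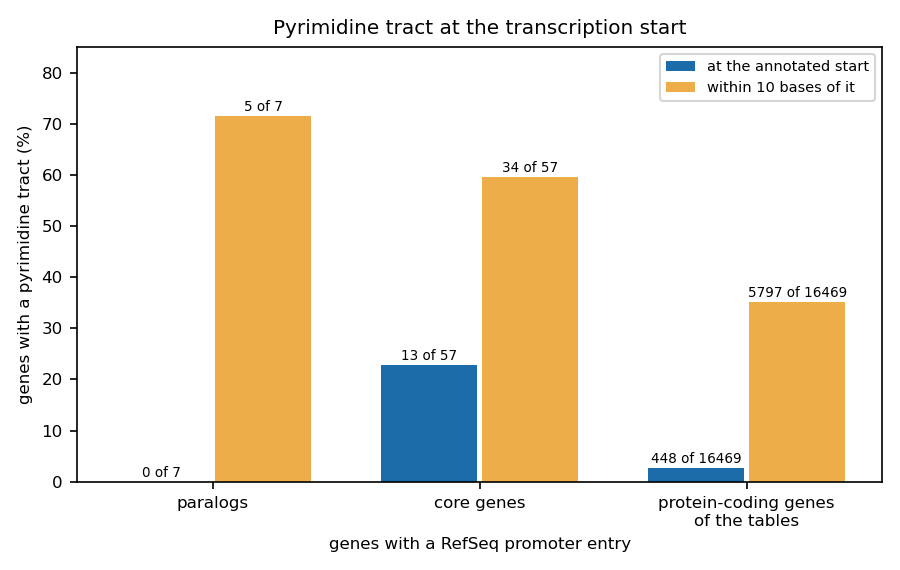
Percentage of genes with a pyrimidine tract exactly at the annotated start (blue) and within 10 bases of it (yellow), for paralogs, core genes and all protein-coding genes with a RefSeq promoter entry, with the numbers of genes above the bars. Core genes reached 22.8% and 59.6%, against 2.72% and 35.2% of all protein-coding genes.

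The 13 core genes were Rpl14, Rpl15, Rpl28, Rpl35, Rpl35a, Rpl38, Rplp2, Rps10, Rps15a, Rps18, Rps21, Rps27 and Rps6. Rps27rt had the tract as well. Annotated starts can be off by several bases, and a tract is a match of letters, not a measured start. The 14 other mRNAs known to start with such a tract, among them Eef1a1 (elongation factor 1A) and Tpt1, are given for comparison: the core genes had a median of 1145 TPM, and these had one of 1276 TPM. Promoter entries matched for 8 of the 14, of which 2 had the tract exactly at the start.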

How the data were processed

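The authors' deposited tables hold raw counts of read pairs. Per the file headers, featureCounts 1.4.6-p4 was run on exons of GENCODE M13 (mm10) with reverse strand and both ends required, without the options that would add multi-mapping pairs or pairs in several genes. The merged exon length deposited beside each count was used here to compute TPM over all 50600 genes. Per the labels the assay is total RNA-seq, while the linked library protocol is named for poly(A) RNA. GENCODE M21 gave symbols by identifier for 50376 genes (99.6%).

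Members and lists were chosen with earlier results of these data known. Named are all paralogs with their core genes, the 5 highest and 5 lowest core genes, members outside both classes, stalk, 5S and fusion genes with Rps6, Rpl41 and Rpsa, the 8 smallest p for variation, and 3 pseudogenes. Genes listed for a tract, a DESeq2 call or extreme shared words were named after their values were seen. Single values of 1 core gene and of 1 gene outside the naming rule are not reported here; the core gene stays in all counts and medians.

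Levels were tested against 1 TPM with edgeR 4.0.16 (R 4.3.3; quasi-likelihood F test of an intercept, two-sided, threshold 0.05). Variation was tested where the mean was 10 counts or more, with TMM scaling, as the deviance from a constant level under a negative binomial model with edgeR's trend of dispersion, one-sided. In simulated counts the variation test found 78% of genes changed 2-fold and 93% of those changed 4-fold, and made 5 false calls among 12849 genes. These counts were drawn at the same trend of dispersion that the test assumes. The false calls therefore do not cover genes whose own dispersion differs from the trend. The level test found 97% of genes raised 2-fold and 100% of those raised 4-fold, and made 4 false calls among 5000. Levels below 1 TPM were not simulated. Differences were taken within libraries as log2(TPM + 1), and those of the 7 pairs were tested by exact sign flips over libraries, two-sided. Shared words are those of 50 bases in M21 transcripts that also occur in another gene's transcripts on either strand. Coding sequences were aligned end to end with Biopython 1.88. DESeq2 1.42.0 and limma 3.58.1 served as alternatives. Limits for a level of 0 use 3 counts over the 4 libraries and cover counting error only, since these reads carry no molecular identifiers.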

Additional observations from a re-analysis of the deposited data

Results flagged for a closer look

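Of 59 values of named genes, lists and pairs, 2 had 1 library far from the other 3. Chance alone meets this criterion in about 1 of 20 groups, so 2 of 59 is no more than chance would give. Rpl28 stood at 674 TPM in replicate 1, against 780.4, 801 and 796 TPM in replicates 2 to 4. Its gap to the nearest library was 0.837 of its range. Rpl36a-ps1 stood at 3.32 TPM in replicate 1, against 1.08, 0.898 and 0.856 TPM in replicates 2 to 4, from 13, 2, 3 and 4 counts. Both strays were in replicate 1, below the others for Rpl28 and above them for Rpl36a-ps1.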

How the results depend on the processing

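All 77 core genes passed 1 TPM with DESeq2, with limma, with a filter of 10 counts and without any 1 library, and 76 passed 100 TPM. Calls below 1 TPM depended on the tool, with 11211 protein-coding genes by edgeR and 1184 by DESeq2. All 7 paralogs stayed lower than their core genes with a pseudocount of 0.1, with 150 bases taken off each length, per unique 50-base word, per principal transcript length and without any 1 library. The pairs were not compared per unique word of the principal transcript, since Rps27 has fewer than 50. The count of members that varied between libraries was 1, but 2 with a common dispersion, 5 with the DESeq2 trend, and 0 to 1 with a library left out (0 without replicate 1 and 0 without replicate 3).

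The paralog minus core difference of -4.97 moved to -5.93 with a pseudocount of 0.1, -3.31 with medians, -5.32 per unique 50-base word, -5.40 per principal transcript length and -6.37 per unique word of the principal transcript. The large minus small difference of -0.41 moved to -0.62 with medians, -0.12 per unique word and -0.38 per principal length, and turned to 0.042 per unique word of the principal transcript. The cause was not tested. The median core level of 1145 TPM became 1191 TPM with protein-coding genes alone in the denominator, 1204 TPM with 150 bases taken off each length, 1406 TPM per unique word, 2669 TPM per principal length and 8233 TPM per unique word of the principal transcript. The values per unique word and per principal length were not rescaled over all genes, so they are not shares of all transcripts. All values per unique word of the principal transcript cover only the 73 core genes with at least 50 such words. The SD of log2 level over core genes, 1.28, became 1.34, 1.498, 1.05 and 1.29 under the same 4 changes of length. It was 1.19 over the 40 core genes with under 25% of all-transcript words shared, and over the 8 with under 25% of principal-transcript words shared it was 1.60 on merged and 1.34 on principal length.

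The median share of all-transcript words was 24.4%, against 26.6% with 36 bases, 16.3% with 100 bases and 61.2% in principal transcripts. The tract share of 22.8% became 59.6% within 10 bases. Alternatives on the principal transcript were chosen after the data were seen. For limma most residual variances over all genes were 0, which weakens its moderated test. Depth limits Rpl39l, Rpl3l and the -ps members, which had 303 summed counts at most.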
